A study of Mus musculus with 10 samples.

Results

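Klf2, Klf4, Nos3, Thbd and Piezo1 are genes through which endothelium senses or answers blood and lymph flow, and their expression was followed across the endothelium of mouse ear skin. The 5 genes were chosen by name, with no threshold on a measured value, out of 42562 genes that the count tables of the single-cell plates share, and all 5 passed the filter on low counts in every comparison of the sorted lymphatic cells. Their levels were measured in 8 plates of single lymphatic endothelial cells (LECs) and in 2 droplet libraries of whole skin endothelium. The plates held wells of live CD31+ PDPN+ CD45- CD11b- Ter119- cells, 1 cell to a well, read by Smart-seq. There were 2 plates each of Tie1 fl/fl and Tie1 Tie2 fl/fl mice, which served as controls, and 2 plates each of Tie1 iΔLEC and Tie1 Tie2 iΔLEC mice, in which the floxed Tie1 allele, or both floxed alleles, had been deleted with Prox1-CreERT2.

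Controls and deleted mice all received daily doses of 62.5 µg 4-hydroxytamoxifen (4-OHT) from P1 to P5, so the controls differed in lacking the Cre allele. Cells were analysed at P28. The Cre driver acts in cells that express Prox1, which in skin vessels means lymphatic endothelium, and not in blood endothelium. In the Tie1 strain replicate 1 was female and replicate 2 male, and these plates also came in 2 different table layouts, so sex, layout and replicate cannot be told apart there. In the double-floxed strain, too, replicates 1 and 2 of each genotype differed in table layout. Layout and replicate cannot be told apart in that strain either. How many mice went into a plate is not given in the sources used here, and with 2 plates a group the p-values measure only the spread between plates. The droplet libraries were 1 of male C57Bl/6j mice given control IgG and 1 of such mice given an antibody to angiopoietin-2 (Ang2 Ab), each at 20 mg/kg every 3 days from P16 to P21. The age label of the Ang2 Ab library reads P1-P21, which differs from that course. The sources used here do not settle the difference. With 1 library a treatment, the antibody comparison has no replicate check and no test.

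Laminar shear stress is sensed at the endothelial membrane, among others by the calcium channel PIEZO1 and by junctional complexes, and is passed through the kinases MEKK3 and ERK5 to MEF2 factors. These switch on the transcription factors KLF2 and KLF4, which in turn raise the endothelial nitric oxide synthase NOS3 and the anticoagulant receptor thrombomodulin, the product of Thbd, and lower genes such as Edn1 and Angpt2. In lymphatic vessels flow differs between parts: capillaries take up fluid, collectors propel it, and valve cells sit where flow reverses, where PIEZO1 and the transcription factors FOXC2 and GATA2 are known to act in valve formation. Angiopoietin-2 acts on the receptor pair TIE1 and TIE2, whose PI3K and AKT signalling holds FOXO1 out of the nucleus. AKT also phosphorylates NOS3.

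The sequences just upstream of Klf2 and Klf4 are shown because MEF2 factors switch on both genes. That of Piezo1 is shown because its promoter was also found. Whether MEF2 acts within these windows was not tested. Promoters of 3 of the 5 genes were found in the RefSeq table of build GRCm38.p6, and each line gives the 250 bases before the RefSeq start of the gene, read 5′ to 3′ on the strand of the gene. Capitals mark a match to the MEF2 binding motif, searched on both strands.
Klf2 (chr8:72318812-72319061, plus strand): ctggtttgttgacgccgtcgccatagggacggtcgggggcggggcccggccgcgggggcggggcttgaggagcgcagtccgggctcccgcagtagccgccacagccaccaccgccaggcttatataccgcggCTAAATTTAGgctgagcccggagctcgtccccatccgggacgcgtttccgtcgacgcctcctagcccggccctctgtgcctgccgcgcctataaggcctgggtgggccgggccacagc
Klf4 (chr4:55532476-55532725, minus strand): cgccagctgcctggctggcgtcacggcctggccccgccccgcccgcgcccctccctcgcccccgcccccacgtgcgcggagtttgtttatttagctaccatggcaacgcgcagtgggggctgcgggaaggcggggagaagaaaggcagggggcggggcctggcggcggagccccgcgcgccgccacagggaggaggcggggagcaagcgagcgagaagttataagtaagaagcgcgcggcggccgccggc
Piezo1 (chr8:122551330-122551579, minus strand): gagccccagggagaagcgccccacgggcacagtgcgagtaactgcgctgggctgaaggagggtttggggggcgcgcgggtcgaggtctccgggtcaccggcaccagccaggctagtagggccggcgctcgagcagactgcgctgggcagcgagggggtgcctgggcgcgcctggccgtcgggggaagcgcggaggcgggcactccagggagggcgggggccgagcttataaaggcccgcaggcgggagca
The Klf2 window held 1 match, 109 bases before the RefSeq start, in a window that was 71.2% G or C. No such letters stood in the window of Klf4 or of Piezo1. Of 32851 mouse promoters of the same length, 167 (0.508%) held a match. On GRCm38 the GENCODE annotation, whose start of Klf2 lies upstream of the RefSeq one and so inside the printed window, places the genes at chr8:72319033-72321656 (Klf2, plus strand), chr4:55527143-55532466 (Klf4, minus), chr5:24364810-24384474 (Nos3, plus), chr2:148404466-148408188 (Thbd, minus) and chr8:122481698-122551329 (Piezo1, minus). The exons of Nos3 overlap those of the antisense gene Gm15587 over 1040 bases and those of Atg9b over 294 bases, and the exons of Piezo1 overlap those of Ctu2 over 2441 bases. Whether counting used strand is not given in the sources used here, so reads of these partners cannot be told apart from those of Nos3 and Piezo1.

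Of 3048 wells, 3026 held at least 1000 genes, and 2669 of these fell into clusters of LECs. The counts of LEC wells were summed per plate, which gave 67001467 to 103811892 counts a plate, and are given as CPM, counts scaled to a common library total. Clustering left out the 5 genes, and from marker genes it named 327 wells capillary LECs, 385 collector LECs and 369 valve LECs, while 1353 LEC wells stayed unnamed. Summed LEC markers lay between 10249 and 12567 CPM on every plate. Mural cell markers summed to 154 and 141 CPM on the Tie1 Tie2 iΔLEC plates against 9 to 54 on the other plates. Cartilage markers summed to 5.88 and 9.92 CPM on these plates against 274 to 559 CPM on the others, arterial BEC markers to between 1247 and 1609.6 CPM against 2706 to 3457 CPM, and fibroblast markers to between 19.2 and 41.3 CPM against 43.8 to 213 CPM. What part these shifts had in the results for the double deletion was not tested.

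In control LECs all 5 genes were expressed at levels of the same order. Per kilobase of exon, the mean over the 4 control plates was 64.9 CPM for Thbd (range 51.5 to 87.8), 43.9 for Nos3 (23.0 to 66.6), 41.6 for Piezo1 (37.0 to 48.3), 40.5 for Klf2 (25.6 to 61.9) and 34.1 for Klf4 (27.2 to 41.2). The ranges of neighbours in this order overlapped. Every control plate of Thbd lay above every one of Piezo1 and of Klf4, while the order among Nos3, Piezo1, Klf2 and Klf4 was within the spread between plates. Where the genes differed was between the parts of the lymphatic tree.

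Nos3 was low in capillary LECs and high in collector and valve LECs. In the 4 control plates its level was 20.6, 45.5, 22.8 and 11.3 CPM in capillary LECs, 418, 492, 243 and 264 CPM in collector LECs, and 404, 524, 354 and 157 CPM in valve LECs, in the order Tie1 Tie2 fl/fl replicates 1 and 2 and Tie1 fl/fl replicates 1 and 2. Every collector and valve value stood above every capillary value, and collector and valve values overlapped. The log2 fold change was 3.94 ± 0.26 (SE) for collector over capillary (edgeR quasi-likelihood test with plate as a term, adjusted p = 0.000731) and 3.91 ± 0.26 for valve over capillary (adjusted p = 9.44e-05), and valve differed from collector by -0.03 ± 0.23. At a finer clustering (resolution 2.0) the collector contrast of Nos3 was 3.27 with adjusted p = 0.0763.

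Thbd was high in collectors. Its control levels were 166, 164, 98.5 and 63.2 CPM in capillary LECs, 427, 578, 401 and 973 CPM in collector LECs and 186, 90.4, 119 and 214 CPM in valve LECs. Collector values did not overlap those of the other classes, and the log2 fold change was 2.21 ± 0.40 over capillary (edgeR adjusted p = 0.0497) and valve lay 1.94 lower than collector on the log2 scale (-1.94 ± 0.39, adjusted p = 0.0314). The call against capillary was lost without any 1 of the 4 plates, under another normalization and under both other clusterings. The call between valve and collector was lost without Tie1 fl/fl replicate 1 or Tie1 Tie2 fl/fl replicate 1 or 2, and with all 8 plates in the fit (adjusted p = 0.107).

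Klf2 was highest in valve LECs. It stood at 68.8, 49.3, 131 and 39.1 CPM in capillary LECs, 29.4, 96.2, 65.0 and 19.5 CPM in collector LECs and 145, 194, 214 and 179 CPM in valve LECs of the 4 control plates. Every valve value exceeded every capillary and collector value. Valve exceeded collector by 2.03 ± 0.43 on the log2 scale (edgeR adjusted p = 0.0370), a call lost without Tie1 fl/fl replicate 1 or 2 or Tie1 Tie2 fl/fl replicate 1 and with all 8 plates in the fit (0.95, adjusted p = 0.287), and it exceeded capillary by 1.48 ± 0.42, which did not pass (adjusted p = 0.120). The valve over capillary contrast of Klf2 passed under both other clusterings (2.05 with adjusted p = 0.00676 when the lists of flow, KLF and immediate-early genes were also left out of clustering, and 2.20 with adjusted p = 0.0425 at resolution 2.0).

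Klf4 and Piezo1 did not pass in any contrast of classes on the control plates. Klf4 averaged 108 ± 40.8 CPM in capillary, 105 ± 51.2 in collector and 192 ± 45.7 in valve LECs (SD, n = 4 plates), with a valve over capillary log2 fold change of 0.81 ± 0.41 (edgeR adjusted p = 0.443). Piezo1 averaged 345 ± 36.6, 443 ± 74.9 and 515 ± 126 CPM in the same order, and its valve over capillary log2 fold change of 0.56 ± 0.19 had adjusted p = 0.198. With all 8 plates in the fit this contrast of Piezo1 passed (adjusted p = 0.00746). The classes were made from other genes of the same wells, so these p-values describe how steady a difference was over plates and are not independent tests of the classes. Of all 15769 genes tested, 0.558% were called for collector against capillary, 2.81% for valve against capillary and 2.66% for valve against collector, against 2, 1 and 2 of the 5 genes.

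**Figure D1:**
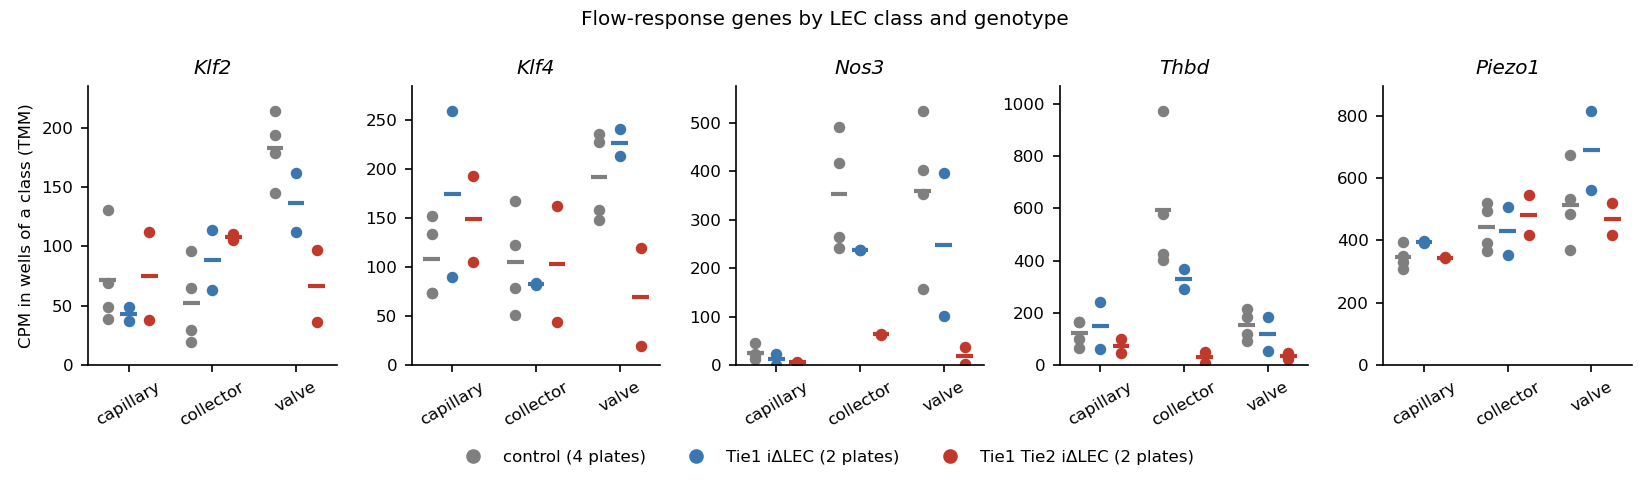
Level of each gene (vertical axis, CPM after TMM normalization) in wells of the capillary, collector and valve LEC class, 1 point a plate and a line at the mean, for the 4 control plates (grey), 2 Tie1 iΔLEC plates (blue) and 2 Tie1 Tie2 iΔLEC plates (red). In controls Nos3 is low in capillary LECs, Thbd is highest in collector LECs and Klf2 in valve LECs, and the red points of Nos3 and Thbd in collector LECs lie below all grey ones.

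Related genes were distributed over the classes as follows. Clustering left out the 5 genes and the genes the study had singled out, Gata2, Angpt2 and Flt4 among them. It did not leave out the other genes of these lists, which could thus help draw the classes they are compared between. The p-values of this paragraph are descriptions and not independent tests. Of 9 lymphatic valve genes, 6 rose in valve against capillary LECs and none fell, among them Fn1, which encodes the fibronectin of the valve matrix (log2 fold change 1.82, edgeR adjusted p = 0.000638), and the transcription factor Gata2 (1.87, adjusted p = 0.00127). Of the flow and KLF targets, Nos3 rose and Timp3, an inhibitor of matrix proteases, fell (-1.17 ± 0.07, adjusted p = 4.7e-05), as did the sphingosine receptor S1pr1 (-0.69, adjusted p = 0.0309). Of genes that flow lowers, Angpt2 rose in valve LECs (1.57, adjusted p = 0.00142), and Icam1 (-1.76, adjusted p = 0.00503) and Ccn2 (-2.90, adjusted p = 0.0202) fell. The mechanosensitive channel Trpv4 was higher in valve LECs (1.13, adjusted p = 0.0115) and the lymphatic growth factor receptor Flt4 lower (-1.38, adjusted p = 0.00254). Plat, the tissue plasminogen activator (2.24, adjusted p = 0.0127), and the immediate-early gene Nr4a1 (4.89, adjusted p = 0.0422), the only call among 15 tested genes of its list, were higher in valve LECs. In the collector against capillary contrast the water channel Aqp1 was lower in collectors (-4.08 ± 0.59, adjusted p = 0.0185), beside the rise of Nos3 and Thbd, and Procr, the protein C receptor, was higher (1.69, adjusted p = 0.0122), but Procr was also one of the genes that named the collector class. None of the 11 genes of the MEKK3, ERK5 and MEF2 pathway was called in valve against capillary (edgeR, with 0 at unadjusted p under 0.05).

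Deletion of Tie1 alone removes TIE1, an orphan receptor that modulates TIE2, from LECs. Nos3 was 149 and 94.9 CPM in LECs of the Tie1 fl/fl plates (replicates 1 and 2) and 142 and 75.3 CPM in those of the Tie1 iΔLEC plates, an overlap and a log2 fold change of -0.17 ± 0.37. Thbd was 192 and 327 CPM in controls and 127 and 149 CPM after deletion. The groups of Thbd did not overlap, and the log2 fold change of -0.91 ± 0.28 did not pass (edgeR adjusted p = 1.00). Klf2 was 114 and 47.2 CPM against 79.1 and 69.6 CPM (-0.12 ± 0.46). Klf4 was 126 and 114 CPM against 142 and 170 CPM (0.38 ± 0.23), groups that did not overlap either but ran the other way from Thbd. Piezo1 was 480 and 368 CPM against 516 and 428 CPM (0.16 ± 0.24). None of the 5 genes passed with edgeR, where 1 of 5 stood at unadjusted p under 0.05, nor with DESeq2. Of all 19873 genes tested 0% passed, with 831 at unadjusted p under 0.05 and 174 called by DESeq2. Each of 9 lists of related genes held 0 calls of edgeR in this strain. Of the 10 tested flow and KLF targets 3 stood at unadjusted p under 0.05 and DESeq2 called 0.

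Deletion of Tie1 and Tie2 together lowered Nos3 and Thbd in LECs. Nos3 was 207 and 275 CPM on the Tie1 Tie2 fl/fl plates and 17.3 and 13.3 CPM on the Tie1 Tie2 iΔLEC plates. The groups stood far apart, with a 15.8-fold lower fitted level after deletion (log2 fold change -3.98 ± 0.41, edgeR adjusted p = 0.00455). Thbd was 214 and 233 CPM in controls and 63.2 and 54.6 CPM after deletion. This was 3.80-fold lower (-1.93 ± 0.29, adjusted p = 0.0190). The call of Thbd was lost without any 1 of the 4 plates of this strain, with adjusted p from 0.0685 to 0.1155, and that of Nos3 was kept in each such fit. The background was 1.20% of genes called, 61 of them higher and 178 lower.

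The transcription factors upstream of Nos3 and Thbd, and the sensor Piezo1, did not pass the test. Klf2 was 54.6 and 82.9 CPM in Tie1 Tie2 fl/fl and 32.0 and 58.3 CPM in Tie1 Tie2 iΔLEC LECs, so the groups overlapped (-0.61 ± 0.46, edgeR adjusted p = 0.747). Klf4 was 82.8 and 93.8 CPM against 88.1 and 73.6 CPM, also overlapping (-0.13 ± 0.23, adjusted p = 0.934). Piezo1 was 425 and 379 CPM against 439 and 316 CPM (-0.09 ± 0.24, adjusted p = 0.964). These estimates missed the threshold, which does not show that the levels were equal.

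**Figure D2:**
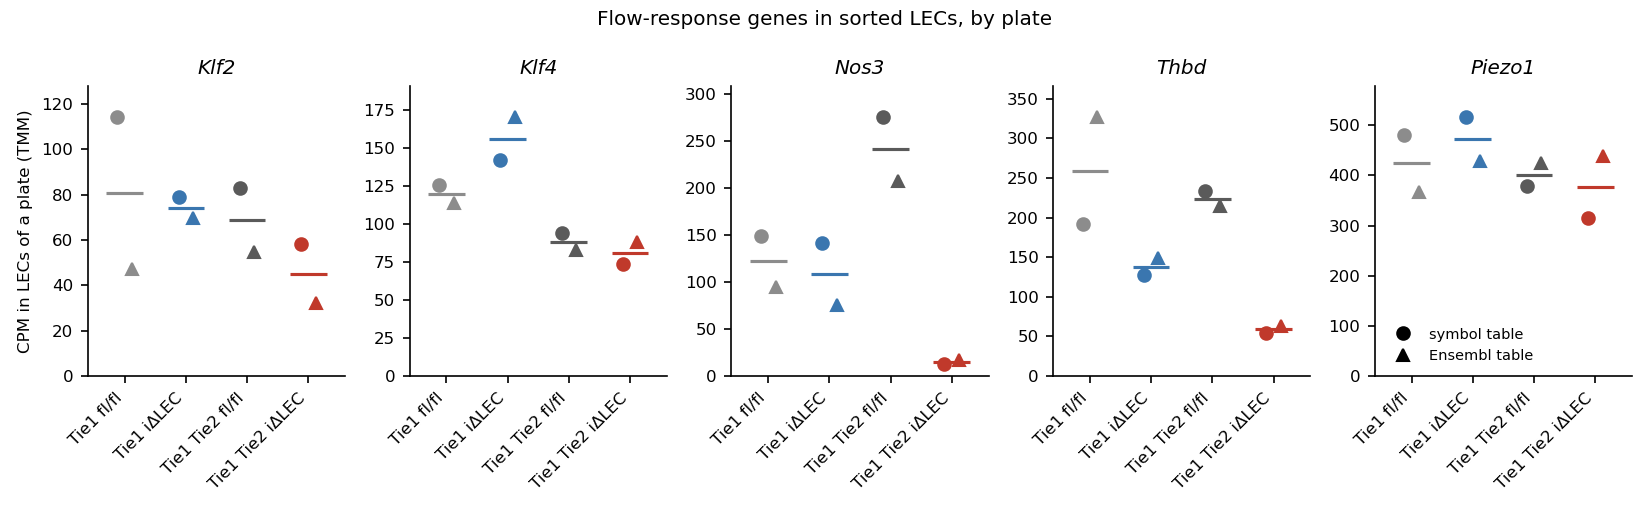
CPM of each gene in the LECs of a plate (vertical axis, TMM normalized), 1 point for each of 2 plates a genotype and a line at their mean, with circles and triangles for the 2 table layouts. Nos3 and Thbd of both Tie1 Tie2 iΔLEC plates lie below all other plates, at means of 15.3 and 58.9 CPM, and Klf2, Klf4 and Piezo1 of these plates lie near or among the rest.

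The difference between the strains was tested as an interaction. For Nos3 the log2 fold change of the double deletion minus that of the Tie1 deletion was -3.82 ± 0.54, which did not pass (edgeR adjusted p = 0.0591). It passed with replicate numbers as a block (-3.78, adjusted p = 0.0272), though these numbers do not mark shared mice, and without the cluster led by Atf3 (adjusted p = 0.0494). For Thbd the difference was -1.02 ± 0.40 (adjusted p = 0.623), for Klf2 -0.49, for Klf4 -0.51 and for Piezo1 -0.25. Of the 5 genes edgeR called 0 in this contrast, against a background of 0.126% of genes called. At unadjusted p under 0.05 stood 2 of the 5, and DESeq2 called 1. Averaged over both deletions Nos3 changed by -2.07 ± 0.82 (edgeR adjusted p = 0.599) and Thbd by -1.42 ± 0.26 (adjusted p = 0.185). For this average edgeR called 0 of the 5, against a background of 0.0269%, while 2 stood at unadjusted p under 0.05 and DESeq2 called 2. The backgrounds are of edgeR at adjusted p and do not apply to the unadjusted and DESeq2 counts.

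Summing all LECs of a plate mixes the classes, and fewer cells of a type and less RNA per cell cannot be told apart in such sums. Collector LECs, the class rich in Nos3 and Thbd, were 23.2% and 19.5% of LEC wells on the Tie1 Tie2 fl/fl plates and 4.79% and 7.23% on the Tie1 Tie2 iΔLEC plates, against 17.3% and 18.3% in Tie1 fl/fl and 13.3% and 13.3% in Tie1 iΔLEC. Capillary LECs, the class low in Nos3, went from 15.0% and 18.3% to 5.35% and 4.34% in the same plates of the double-floxed strain, so the shares of both classes were lower. Valve LECs went from 14.7% and 16.5% to 13.8% and 10.4%. The remaining LEC wells, which were most of those on the Tie1 Tie2 iΔLEC plates, lay in none of these classes. Genes were scaled within each plate before clustering, and plates did not mix genotypes, so wells were clustered relative to their own plate. What part this had in the shares was not tested. The levels were therefore also compared within a class, which leaves the remaining wells out.

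Within collector LECs Nos3 was 418 and 492 CPM in Tie1 Tie2 fl/fl and 61.9 and 64.3 CPM in Tie1 Tie2 iΔLEC, where 17 and 25 wells remained. The wells that clustered as collectors did not carry the same marker RNA in both groups. Summed collector markers in them were 9018 and 8697 CPM in Tie1 Tie2 fl/fl and 3990 and 2799.9 CPM in Tie1 Tie2 iΔLEC, and summed capillary LEC markers were 1791 and 2376 CPM against 5546 and 5179.7 CPM. After deletion these wells thus held more capillary than collector marker RNA, and what part this had in the fall of Nos3 was not tested. The log2 fold change was -2.79 ± 0.34 (edgeR adjusted p = 0.00979, background 0.514% of genes called), and the call was lost without Tie1 Tie2 fl/fl replicate 1 (adjusted p = 0.0522) or replicate 2 (adjusted p = 0.0707). Thbd in collector LECs was 427 and 578 CPM in controls and 8.19 and 50.2 CPM after deletion, the lowest value resting on 27 counts. The groups stood apart, but the log2 fold change of -4.01 ± 0.78 did not pass (adjusted p = 0.0816), though it did without Tie1 Tie2 iΔLEC replicate 2 (adjusted p = 0.0158). In Tie1 iΔLEC collectors Nos3 was 238 and 237 CPM against 243 and 264 CPM in Tie1 fl/fl, and Thbd was 369 and 291 CPM against 401 and 973 CPM. The difference between the strains within collectors was -2.72 ± 0.45 for Nos3 (adjusted p = 0.0947) and -2.99 ± 1.00 for Thbd (adjusted p = 0.536).

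Within valve LECs Nos3 was 404 and 524 CPM in Tie1 Tie2 fl/fl and 37.6 and 1.26 CPM in Tie1 Tie2 iΔLEC, the last value resting on 18 counts. Summed valve markers in these wells were 7247 and 9153 CPM in controls and 4483 and 3403 CPM after deletion, and summed capillary LEC markers 1689.7 and 1399.7 CPM against 3868 and 3431 CPM, so the marker make-up of this class shifted along with the gene. The log2 fold change was -4.55 ± 1.25 (edgeR adjusted p = 0.352), and it passed at -6.61 (adjusted p = 0.0185) when the lists of flow, KLF and immediate-early genes were left out of clustering, and at -8.44 (adjusted p = 0.0409) without Tie1 Tie2 iΔLEC replicate 1. Klf2, highest in this class, was 145 and 194 CPM in these controls and 36.0 and 96.7 CPM after deletion. The groups of Klf2 in valve LECs did not overlap, and the log2 fold change of -1.31 ± 0.51 did not pass (adjusted p = 0.593). Klf4 in valve LECs was 148 and 158 CPM against 119 and 19.5 CPM (-1.11 ± 0.66), and Thbd was 186 and 90.4 CPM against 44.6 and 24.0 CPM (-1.99 ± 0.69, adjusted p = 0.508). In valve LECs 0 of 5 genes were called by edgeR, against a background of 0.110% of genes called. At unadjusted p under 0.05 stood 3 of the 5, a looser threshold to which that background does not apply.

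Within capillary LECs, where Nos3 was low to begin with, it was 20.6 and 45.5 CPM in Tie1 Tie2 fl/fl and 5.93 and 4.51 CPM in Tie1 Tie2 iΔLEC, on 20 and 19 counts after deletion (-2.56 ± 1.60, edgeR adjusted p = 0.667). Thbd in capillary LECs changed by -1.07 ± 0.70. None of the 5 genes was called in capillary LECs by edgeR, against a background of 0.116%, and 0 stood at unadjusted p under 0.05. With Tie1 deletion alone edgeR called 0 of 5 in each class, against backgrounds of 0%, and 0 stood at unadjusted p under 0.05. Over all 8 plates Piezo1 ranged over 309 to 398 CPM in capillary, 353 to 545 CPM in collector and 370 to 814 CPM in valve LECs.

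**Figure D3:**
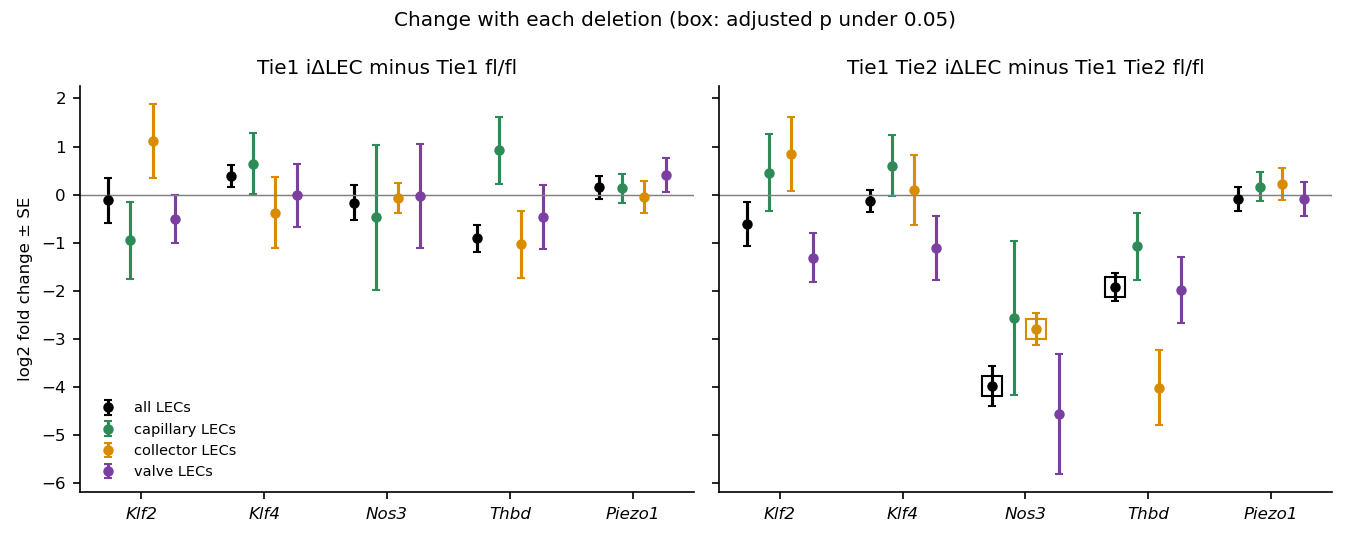
Fitted log2 fold change with SE (vertical axis) of each gene for Tie1 deletion (left) and deletion of Tie1 and Tie2 (right), in all LECs and within capillary, collector and valve LECs. A box marks an adjusted p under 0.05, which only Nos3 in all LECs and in collector LECs and Thbd in all LECs reached, all with deletion of Tie1 and Tie2.

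Genes of the flow pathway, members included, moved in both directions with deletion of Tie1 and Tie2. Of 10 tested flow and KLF targets, a list that holds Nos3 and Thbd, 1 rose and 2 fell. Of these 10, 8 stood at unadjusted p under 0.05, a looser threshold to which the share of all genes called by edgeR does not apply. This holds for such counts in the other lists too. The median log2 fold change of the 10 was -0.56, where the median of all genes was 0.00459. Nos3 and Thbd were the targets that fell. Aqp1 was the one that rose, from 232 and 264 CPM to 744 and 627 CPM (1.47 ± 0.24, edgeR adjusted p = 0.0304), so the targets did not fall as a group. Of 8 tested genes that flow or KLF2 lowers, 2 rose and none fell, with a median of 2.53. Angpt2 rose from 272 and 515 CPM to 3220 and 2622 CPM (2.89 ± 0.31, adjusted p = 0.00455), and Ccn2, a target of the stretch-sensitive factor YAP, from 85.4 and 66.0 CPM to 503 and 395 CPM (2.57 ± 0.28, adjusted p = 0.00455).

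The lists upstream of KLF2 and KLF4 held no call of edgeR. Of 10 genes of flow sensing at the membrane 4 stood at unadjusted p under 0.05 and DESeq2 called 2, with a median log2 fold change of 0.05, and Pecam1, which encodes a junctional sensor, changed by 0.04 ± 0.19. Of 11 genes of the MEKK3, ERK5 and MEF2 pathway 0 stood at unadjusted p under 0.05 and DESeq2 called 0, with a median of 0.03, and Mef2c changed by -0.23 ± 0.24.

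Among nitric oxide and clotting genes few passed the test, and those fell. Gucy1a1, a subunit of the guanylate cyclase that nitric oxide activates, fell from 363 and 288 CPM to 44.3 and 36.7 CPM (-3.01 ± 0.27, edgeR adjusted p = 0.00279), the only call among 11 nitric oxide genes, of which 7 lay above 0 and 4 below, with a median of 0.19. Of 6 protein C and clotting genes 2 fell, and the median was -1.42. Procr, the receptor that presents protein C to thrombomodulin, went from 183 and 171 CPM to 53.3 and 34.2 CPM (-2.02 ± 0.28, adjusted p = 0.0120), and Vwf, which encodes von Willebrand factor, from 6.25 and 10.1 CPM to 0.25 and 0.56 CPM (-4.33 ± 0.79, adjusted p = 0.0463). Procr and Vwf were also among the genes that named cell classes. Of 9 valve genes edgeR called 1 higher and 1 lower, while 6 stood at unadjusted p under 0.05 and DESeq2 called 5. Of the 9, 3 lay above 0 and 6 below, with a median of -1.02. The claudin gene Cldn11 fell from 411 and 432 CPM to 77.0 and 65.4 CPM (-2.57 ± 0.20, edgeR adjusted p = 0.00145). Fn1 rose from 1055 and 1057 CPM to 3636 and 3269 CPM (1.71 ± 0.15, edgeR adjusted p = 0.00283). For Cldn11 the difference between the strains passed as well (-2.74 ± 0.27, adjusted p = 0.0122).

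Among 12 other Kruppel-like factors tested, Klf15 was called. It had 1176 and 509 counts on the Tie1 Tie2 fl/fl plates and 0 and 3 counts on the Tie1 Tie2 iΔLEC plates, while in the Tie1 strain it had 1988 and 1293 counts in controls and 1260 and 988 counts after deletion. Klf15 was thus called in the double-floxed strain, where Klf2 and Klf4 were not. Others of the 12 factors also separated these groups of plates without being called, so separation was not particular to Klf15. Immediate-early and stress genes, which respond to cell isolation as KLF2 and KLF4 do, held no call of edgeR among 16, with 3 at unadjusted p under 0.05 and 2 called by DESeq2. Their summed level was 2513 and 1703 CPM in Tie1 Tie2 fl/fl and 3039 and 2110 CPM in Tie1 Tie2 iΔLEC LECs, and 1590 and 2009 CPM against 2124 and 2144 CPM in the Tie1 strain.

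The droplet libraries, sorted on CD31, added blood endothelium. After filtering, the IgG library held 1362 LECs and 1354 blood endothelial cells (BECs) and the Ang2 Ab library 782 LECs and 1350 BECs, and levels are CPM of UMIs summed over the cells of a class, with exact 95% Poisson intervals that cover counting error only. In IgG Klf2 was 562 CPM (538 to 587) in capillary LECs, 2835 (2778 to 2893) in collector LECs, 3113 (3050 to 3177) in valve LECs, 2259 (2180 to 2340) in arterial, 2678 (2623 to 2734) in capillary and 1854 (1806 to 1903) in venous BECs. Capillary LECs held the lowest Klf2 level of the 6 classes under every filter and clustering run, while the order of the others depended on how the classes were drawn. Capillary BECs stood above valve LECs with at least 1000 genes a cell (3225 and 3000.1 CPM), and collector LECs fell to 1964 CPM, below capillary and arterial BECs, when the flow, KLF and immediate-early lists were left out of clustering. Klf4 was 485 CPM in capillary, 1911 in collector and 2440 in valve LECs and between 1073 and 1273 CPM in the 3 BEC classes. Klf4 ran higher in collector and valve LECs than in any named blood class of this library. Cells outside endothelium were not free of these factors: Klf2 stood at 2039 CPM in cartilage cells and 238 CPM in keratinocytes, and Klf4 at 1462 CPM in fibroblasts.

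Nos3 in IgG was 29.8 CPM (24.4 to 36.0) in capillary LECs, 84.2 (74.6 to 94.7) in collector LECs and 127 (115 to 141) in valve LECs. In BECs it was 162 CPM (141 to 185) in arterial, 114 (103 to 126) in capillary and 85.4 (75.3 to 96.5) in venous cells. Arterial BECs held the highest level of these classes, and collector LECs and venous BECs did not differ beyond counting error. The capillary BEC class was uneven for Nos3, with 92.5 and 164 CPM in its subclusters, and the larger arterial subcluster also held 164 CPM. With Ang2 Ab the same subclusters held 77.6, 139 and 164 CPM. Fibroblasts of the same library, which should lack Nos3, stood at 12.9 CPM and keratinocytes at 4.27 CPM. Thbd was 208 CPM (192 to 224) in capillary and 180 in venous BECs, 124 in arterial BECs, 107 (96.3 to 119) in collector, 68.9 in capillary and 46.4 (39.0 to 54.8) in valve LECs. Piezo1 was 244 CPM in valve LECs, 197 in capillary LECs and 110 in collector LECs, and 161 CPM in venous, 137 in capillary and 94.2 in arterial BECs.

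**Figure D4:**
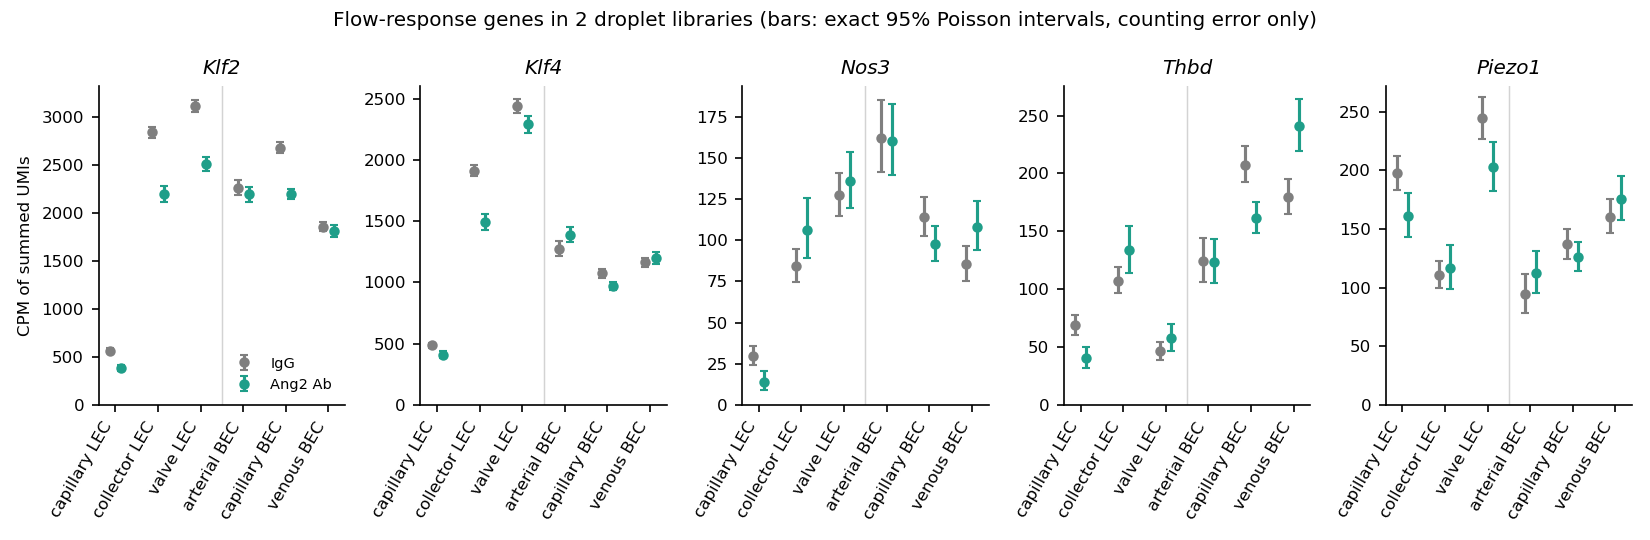
CPM of summed UMIs (vertical axis) of each gene in 3 LEC and 3 BEC classes of the IgG (grey) and Ang2 Ab (green) droplet library, with exact 95% Poisson intervals that cover counting error only. Capillary LECs are lowest for Klf2, Klf4 and Nos3, and arterial BECs are highest for Nos3 (162 CPM in IgG and 160 CPM in Ang2 Ab).

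The 3 LEC classes ranked alike in part on the plates and in the droplet libraries. Among them Nos3 was lowest in capillary, Thbd highest in collector and Klf2 highest in valve LECs. The droplet valve class was uneven for Thbd, with 116, 8.03 and 12.3 CPM in its subclusters with IgG against 107 CPM in collectors. With Ang2 Ab these were 127, 9.19 and 13.6 CPM against 134 CPM. The levels of Klf2 in collector and capillary LECs overlapped on the plates, at 52.5 ± 35.1 and 71.9 ± 41.0 CPM (SD, n = 4), whereas collectors of the IgG library held 2835 CPM against 562 CPM in capillary LECs. Piezo1 stood at 443 ± 74.9 CPM in collector and 345 ± 36.6 CPM in capillary LECs of the plates, a difference that did not pass, and at 110 CPM against 197 CPM in those of the IgG library. Of the 3 LEC classes of the IgG library, capillary LECs were lowest for the immediate-early list as for Klf2. Collectors were highest for the list and valve LECs for Klf2. The summed list in that library was 3463 CPM in capillary, 27600 in collector and 18132 in valve LECs. On the control plates it was 1288 to 2470 CPM in capillary, 1386 to 2116 in collector and 1828 to 2449 in valve LECs. In the collector cluster of the droplets 14 of 16 immediate-early genes were raised, and in that of the plates 0 of 16. Across the subclusters of LECs and of BECs, Klf2 and Klf4 ran with the summed list, with Spearman's rho from 0.72 to 0.92 over 12 LEC or 11 BEC subclusters of a library, which share library and depth, while for Nos3, Thbd and Piezo1 rho lay between -0.68 and 0.38. At resolution 2.0 capillary LECs of the IgG library held 1286 CPM of Klf2 and 1287 CPM of Klf4, so these capillary levels depended on where the class was drawn. The part of cell isolation in the levels of Klf2 and Klf4 was not tested.

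**Figure D5:**
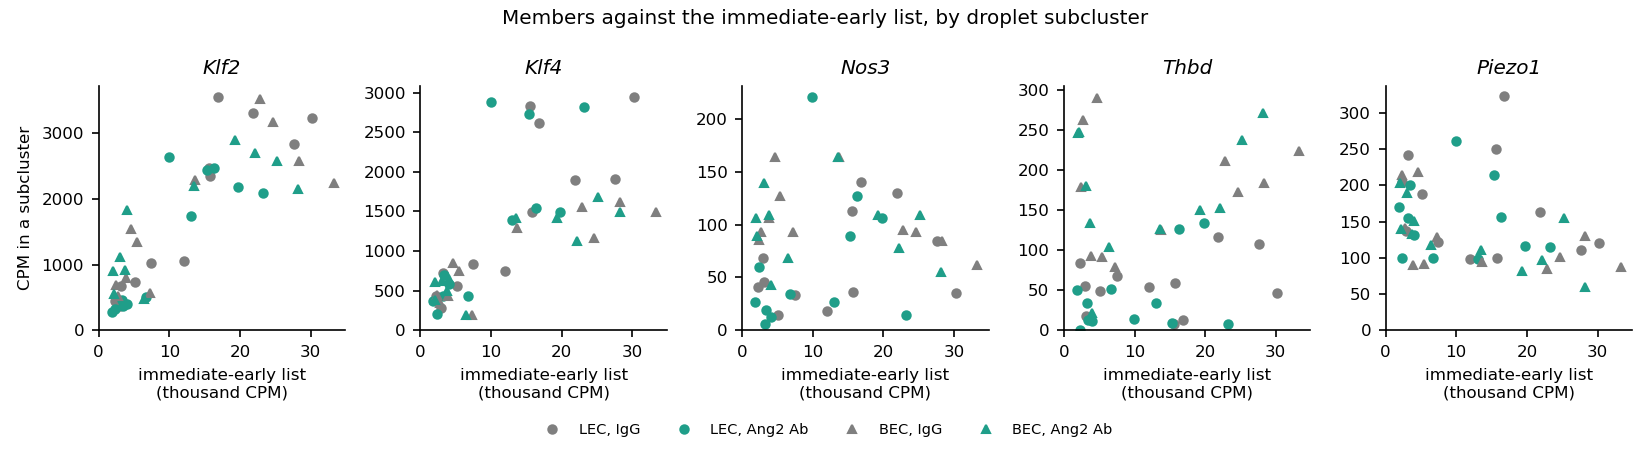
CPM of each gene (vertical axis) against the summed level of 16 immediate-early and stress genes (horizontal axis, CPM divided by 1000), 1 point for each LEC (circle) or BEC (triangle) subcluster of at least 20 cells in the IgG (grey) and Ang2 Ab (green) library. Klf2 and Klf4 climb with the list, with Spearman's rho from 0.72 to 0.92, and Nos3, Thbd and Piezo1 do not.

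With Ang2 Ab all 5 genes stood within 2-fold of IgG in LECs and in BECs. In LECs Klf2 was 2018 CPM with IgG and 1344 CPM with Ang2 Ab, a ratio of 0.666 (95% counting interval 0.653 to 0.680), and Thbd was 62.9 and 45.9 CPM, a ratio of 0.729 (0.653 to 0.814). Klf4 had a ratio of 0.867 (0.849 to 0.885), and the intervals of Nos3 (0.908, 0.815 to 1.010) and Piezo1 (0.945, 0.887 to 1.006) held 1. The shares of the LEC classes differed between the libraries. Collectors were 239 of 1362 LECs with IgG and 98 of 782 with Ang2 Ab, and valve LECs were 253 and 176. What part this had in the ratios of all LECs was not tested. In BECs the ratios were 0.843 for Klf2, 0.898 for Klf4, 0.992 for Nos3, 0.959 for Thbd and 0.987 for Piezo1. Past 2-fold in either direction lay 2.08% of 10811 genes in LECs and 0.720% of 10419 genes in BECs. The immediate-early list was lower with Ang2 Ab in both, at 16213 and 11160 CPM in LECs and 17536 and 13611 CPM in BECs, for 15 of 16 genes in LECs and 14 of 16 in BECs. Klf2 was also lower with Ang2 Ab in mural cells, at 1193 and 780 CPM. Among the named classes outside endothelium only cartilage cells were not lower, at 2039 and 2043 CPM. Without the subclusters in which immediate-early genes were raised, which took out the whole collector class, the LEC ratio of Klf2 was 0.675. The list still differed between the libraries in the remaining LECs, at 10257.5 CPM with IgG and 7215 CPM with Ang2 Ab. What part the list had in the Klf2 ratio was not tested.

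By class, the Nos3 level of capillary LECs was 29.8 CPM with IgG, on 106 UMIs, and 14.0 CPM with Ang2 Ab, on 26 UMIs, a ratio of 0.468 (0.293 to 0.725). This rested on the filters: with at least 1000 genes a cell the levels were 10.5 and 6.36 CPM, on 16 and 7 UMIs, and the IgG level was 12.4 to 18.4 CPM with the highest doublet scores removed or under both other clusterings. The Ang2 Ab level was close to that of fibroblasts in the IgG library (12.9 CPM). Collector LECs ran the other way for Nos3 (84.2 and 107 CPM) and Thbd (107 and 134 CPM), and the lower Thbd of all LECs was thus not seen in its richest named LEC class. Valve LECs held 46.4 and 57.5 CPM of Thbd. Lower Thbd with Ang2 Ab was seen in capillary LECs (68.9 and 40.3 CPM) and in unnamed LECs (48.1 and 13.3 CPM). These unnamed LECs were 491 cells with IgG and 306 with Ang2 Ab, and their Nos3 stood at 37.5 and 17.9 CPM. Venous BECs held 180 CPM of Thbd with IgG and 241 CPM with Ang2 Ab (ratio 1.34, 1.18 to 1.52), while capillary BECs held 208 and 161 CPM. Klf2 was lower with Ang2 Ab in capillary LECs (562 and 383 CPM), collector LECs (2835 and 2192 CPM), valve LECs (3113 and 2505 CPM) and capillary BECs (2678 and 2192 CPM). In arterial (2259 and 2192 CPM) and venous BECs (1854 and 1811 CPM) the counting intervals of Klf2 overlapped, and in venous BECs the order turned with at most 5% mitochondrial UMIs (2043 and 2079 CPM) and without the flow lists in clustering (1829.97 and 1846 CPM). Among related genes in LECs, Angpt2 stood 6.19-fold (5.92 to 6.47), Ccn2 4.02-fold (3.77 to 4.28) and Edn1, the vasoconstrictor endothelin-1 that KLF2 represses, 2.97-fold (2.60 to 3.39) above IgG, and Procr stood at 0.422 of it.

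Side by side, the log2 change of Nos3 in LECs was -0.17 ± 0.37 with Tie1 deletion, -3.98 ± 0.41 with deletion of Tie1 and Tie2 and -0.14 with Ang2 Ab. These come from different assays and ages, so no test was made between the last and the others. For Thbd the same values were -0.91 ± 0.28, -1.93 ± 0.29 and -0.46, and for Klf2 -0.12 ± 0.46, -0.61 ± 0.46 and -0.59. Nos3 and Thbd passed the test in the double deletion, and the difference between the strains did not pass for Thbd and passed for Nos3 only under some alternatives.

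The genes most like each member were sought by Pearson's r of log2(CPM + 1) over 12 points, the 3 classes on 4 control plates, among 9735 genes. Nos3 was followed by its antisense neighbour Gm15587 (r = 0.996), whose exons share bases with it, then by Slc27a3 (0.95) and Rassf9 (0.93). Thbd was followed by Tmem176b (0.94), Anxa3 (0.91) and Tsc22d1 (0.91), Klf2 by 3300005D01Rik (0.89), Odc1 (0.89) and Cep83 (0.88), Klf4 by Hilpda (0.89), Ddit3 (0.88) and Rhpn1 (0.87), and Piezo1 by Hist1h1c (0.89), Cog3 (0.85) and Akap9 (0.85). Among the 5 genes r was 0.57 for Klf2 with Klf4, 0.53 for Nos3 with Thbd, 0.65 for Nos3 with Piezo1 and -0.50 for Klf2 with Thbd. The points share plates and depth, so these are descriptions.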

How the data were processed

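The authors deposited raw counts of reads per gene and well for 8 plates, and filtered droplet matrices of UMI counts for 2 libraries. The submitters' processing notes name TopHat2 2.1.1, SAMtools 0.1.18, featureCounts, Cell Ranger 2.1.1, Seurat 4.0.6 and the builds GRCm38 and mm10, whereas the droplet headers name Cell Ranger 6.0.2. The title of the Ang2 Ab library also holds the word control, and its treatment label was followed.

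Genes of both plate layouts were joined by symbol (41776) or older symbol (786). Wells with at least 1000 genes and droplets with at least 500 genes and at most 10% mitochondrial UMIs were clustered with scanpy 1.11.5 and leidenalg 0.10.2 (2000 variable genes, 30 components, resolution 1.0), without the 5 genes and the genes the study had singled out. Before clustering each gene was scaled within its plate or library, so wells and droplets were clustered relative to their own plate or library. Clusters were named from fixed markers, at least 3 of which had to be raised. Scrublet marked 0.582% and 0.0675% of droplets, so it had not worked, and removing the 5% with the highest scores was an alternative. The 2 libraries shared 5 barcodes, of 4685 with IgG and 4331 with Ang2 Ab.

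Sums of counts per plate were compared by the quasi-likelihood test of edgeR 4.0.16 in R 4.3.3, after its default filter on low counts and TMM scaling, with Benjamini-Hochberg adjustment over all genes tested and a threshold of 0.05, with 1 fit over all 8 plates for the deletions and with plate as a term for the classes. DESeq2 1.42.0 was an alternative. The fits were tested on simulated data. With 2 plates against 2 an exact permutation test cannot go under p = 0.333. Named genes were the 5 members, from each list the 2 called genes with the smallest adjusted p or else the 2 with the highest level, and the 3 genes most like each member. Genes named beyond that (S1pr1, Ccn2, Atf3, and in the droplet libraries Angpt2, Edn1 and Procr) were chosen after their values were seen. The members, lists and naming rule were chosen with earlier results of these data known. Alternatives without clusters high in immediate-early genes, and those within collector and valve LECs, were chosen after seeing the data.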

Additional observations from a re-analysis of the deposited data

How the results depend on the processing

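Of the log2 values of single genes, 569 kept direction and side of the threshold across the alternatives, 17 passed it only under an alternative, 23 lost a call and 36 turned sign. The call of Nos3 with deletion of Tie1 and Tie2 was kept under every alternative run, and that of Thbd was lost when a double-floxed plate was left out. Over all genes, deletion of Tie1 and Tie2 gave 239 calls, 1027 with DESeq2 and 1182 without a filter on low counts. The difference between the deletions called 1 of the 5 genes with DESeq2, without the filter, with the replicate block and without the cluster led by Atf3, and the average called 2 with DESeq2 and without the filter.

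The replicate numbers of the Tie1 strain came from the labels but did not mark shared mice, and same-numbered plates correlated in their deviations at r = 0.293, against 0.326 for double-floxed plates of 1 layout, over 9798 genes. With the replicate block Klf2 changed by 0.0146 with Tie1 deletion, and with table layout as a term by 0.0147. The layout term of Klf2 itself was -0.73 ± 0.21 (edgeR adjusted p = 0.345). The block changed no other call. Without the Atf3 cluster Klf4 averaged -0.0190 over both deletions.

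Within capillary LECs and deletion of Tie1 and Tie2, Klf2 was -0.14 without the flow lists in clustering and -0.16 at resolution 2.0, and Nos3 was 0.14 at resolution 2.0. Within collector LECs 2 genes were called at resolution 2.0, where Tie1 Tie2 iΔLEC replicate 1 held only 7 wells, and without the filter, Klf2 was -0.12 and Piezo1 -0.000607 without the flow lists, and Klf4 was -0.00468 without the filter. Within valve LECs 1 gene was called without the flow lists and 1 without the filter, and Piezo1 was 0.19 without the flow lists and 0.0130 at resolution 2.0.

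For collector against capillary LECs, 1 gene was called without the flow lists, with RLE size factors and with all 8 plates, and 0 at resolution 2.0. Klf2 was 0.28 with all 8 plates, and Klf4 was 0.0767 without the flow lists and 0.0503 at resolution 2.0. For valve against capillary LECs 2 were called without the flow lists, at resolution 2.0 and with all 8 plates, where Thbd was -0.28. For valve against collector LECs 0 were called with all 8 plates, and Nos3 was 0.25 without the flow lists and 0.00381 with RLE size factors.

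Leaving out 1 plate at a time gave 0 to 0 calls for Tie1 deletion, 1 to 2 for deletion of both, 0 to 0 for the difference, the average and within capillary LECs, 0 to 2 within collector and 0 to 1 within valve LECs, 1 to 1 for collector and for valve against capillary and 0 to 1 for valve against collector. Signs turned for Klf2 (-0.62 to 0.66), Nos3 (-0.69 to 0.22) and Piezo1 (-0.0264 to 0.36) with Tie1 deletion, Piezo1 with deletion of both (-0.39 to 0.13), Klf2 in the difference (-1.27 to 0.00132) and Piezo1 in the average (-0.0636 to 0.14). They also turned for Klf2 within capillary (-0.60 to 1.01), Klf4 (-1.14 to 0.69) and Piezo1 (-0.00223 to 0.43) within collector and Piezo1 within valve LECs (-0.22 to 0.0219), and for Klf4 in collector against capillary (-0.49 to 0.33), Thbd in valve against capillary (-0.0679 to 0.63) and Nos3 in valve against collector (-0.23 to 0.22).

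Of the droplet ratios 54 stayed inside the counting interval of the main setting and 6 moved outside it. The droplet levels by class were less steady, with 166 inside that interval and 134 outside it. At most 5% mitochondrial UMIs gave 0.628 for Klf2 and 0.822 for Klf4 in LECs and 0.817 for Klf2 in BECs. Without clusters high in immediate-early genes the BEC ratios were 0.871 for Klf2 and 0.942 for Klf4, and resolution 2.0 gave 0.924 for Klf4 in BECs. The cause of these changes was not tested.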
